A study of Homo sapiens with 15 samples.

Results

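The miR-132 and miR-212 genes give 4 mature miRNAs, hsa-miR-132-3p, hsa-miR-132-5p, hsa-miR-212-3p and hsa-miR-212-5p (written without the prefix from here on). They were chosen by name, as every entry beginning with hsa-miR-132- or hsa-miR-212-, and all 4 were listed among the 2418 miRNAs of the FTO knockdown counts and among the 2189 miRNAs of the m6A immunoprecipitation (RIP-seq) counts. FTO1C1, FTO2D4 and FTO3C3 were the cell lines, each a HEK293 derivative, that is, made from a line of human embryonic kidney, and in the study they were kept without induction. For the knockdown, each line was transfected with 10 nM of FTO-specific siRNA or of scrambled siRNA by lipofectamine and harvested after 48 h, which gave 3 libraries per group. FTO is a demethylase of N6-methyladenosine (m6A), and the knockdown was by siRNA, so some FTO remains in these cells. For RIP-seq, small RNA of the same lines was used, and the sample titles name no siRNA for it. It was sequenced before precipitation (input) and after pull-down by an antibody to m6A (m6A samples). It was also sequenced after pull-down by IgG as the isotype control (IgG samples), again in 3 libraries per group.

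miR-132 and miR-212 are processed from neighbouring hairpins of the same primary transcript. In neurons this transcript is a known target of the transcription factor CREB, which is activated by neurotrophins and synaptic activity, and of the neuronal repressor REST. Each hairpin is cut into an arm from its 5′ side (5p) and an arm from its 3′ side (3p), of which 1 is usually kept as the guide that directs Argonaute to mRNAs. For both genes the 3p arm is the better known guide, and FOXO3 is among the mRNAs that miR-132-3p is known to repress. The counts measure mature arms only, so neither CREB activity nor the primary transcript was measured.

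The sequences show which arms share a target specificity, since the seed, bases 2 to 8 from the 5′ end, is the main determinant of target choice. All 4 names matched entries of RefSeq (GRCh38.p14), from which the sequences were taken, and the seed is in capitals.
miR-132-3p: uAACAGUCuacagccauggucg
miR-212-3p: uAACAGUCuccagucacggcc
miR-132-5p: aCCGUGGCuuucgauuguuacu
miR-212-5p: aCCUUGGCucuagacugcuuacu
The 3p arms of both genes had the seed AACAGUC, which no other of the 2370 human mature miRNAs in that table had. The seeds of the 5p arms differed from each other, and each was found in 1 arm only. In GRCh38.p14 both hairpins lie on the minus strand of chromosome 17, MIR132 at chr17:2049908-2050008 and MIR212 at chr17:2050271-2050380, with 262 bases between them. Within them, miR-132-3p lies at chr17:2049929-2049950, miR-132-5p at chr17:2049965-2049986, miR-212-3p at chr17:2050290-2050310 and miR-212-5p at chr17:2050328-2050350. The authors matched reads to miRNA sequences and not to a genome, so these positions come from the annotation alone.

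Close relatives can take each other's reads, which was checked on the sequences. miR-132-3p and miR-212-3p had the same base at 17 of the 21 positions compared from the 5′ end, but their longest common stretch was 9 bases. The authors required exact matches of at least 7 bases that together cover at least 17 bases of a read. Under that rule 9 bases of miR-132-3p were covered by miR-212-3p, and no other human mature miRNA of the RefSeq table covered more than 10 bases of any of the 4 arms. A read of a complete arm could therefore not have been counted for another of these entries. Reads of other RNAs were not compared with the arms.

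The data were reads on mature miRNAs, and levels are given as reads per 1000000 miRNA reads of the library (RPM). Mature miRNAs are short and a counted read had to match at least 17 bases, so no division by length was made. Differences in ligation between miRNAs were not measured. Libraries held between 1991317 and 3876806 miRNA reads in the knockdown experiment and between 186446 and 4973238 in RIP-seq, the lowest being the IgG sample of FTO3C3, in which 1 read is worth 5.36 RPM. Between 15.5% and 71.6% of the RIP-seq reads in a library were on miR-6080, against at most 4.18% in the knockdown. In FTO2D4 its count was the same number, 563404, in the m6A and in the IgG sample, and it enters the totals of both. As a check of the cell label, miR-10a-5p, known to be abundant in HEK293, had at least 96696 RPM in the knockdown and input libraries, while 6 markers of liver, blood, muscle and heart together had between 45.1 and 106 RPM in the knockdown libraries. None of the 6 was at 0 there, and miR-208b-3p reached 67.8 RPM.

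In cells with scrambled siRNA all 4 arms were expressed at a low level, above the cutoff of 15 RPM that the study used for expressed miRNAs in all 3 libraries. miR-132-3p was the highest, with 60.2, 49.1 and 73.8 RPM in FTO1C1, FTO2D4 and FTO3C3, from 121 reads or more in each. miR-212-5p had 141, 82 and 98 reads, or 38.8, 33.3 and 49.2 RPM. miR-132-5p had 97, 73 and 72 reads, or 26.7, 29.6 and 36.2 RPM. The range of miR-212-5p thus overlapped that of miR-132-5p and, by a narrow margin, that of miR-132-3p. miR-212-3p was the lowest by its mean, with 98, 45 and 36 reads or 26.9, 18.3 and 18.1 RPM, a range that touched that of miR-132-5p. By mean RPM, 81.3% of the 2418 miRNAs lay below miR-132-3p, 76.0% below miR-212-5p, 70.7% below miR-132-5p and 61.5% below miR-212-3p.

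In the input the order was different, with miR-212-3p far above the other 3 arms. miR-212-3p had 5741, 2676 and 9159 reads, or 4075, 1833 and 6105 RPM. miR-132-3p had 305, 156 and 353 reads, or 217, 107 and 235 RPM, and miR-132-5p had 200, 277 and 211 reads, or 141.97, 190 and 141 RPM. These ranges overlapped for the arms of miR-132. miR-212-5p was the lowest, with 25, 29 and 22 reads or 17.7, 19.9 and 14.7 RPM. miR-212-3p ranked 24th of 2189 miRNAs by its mean in the input and miR-212-5p 1049th.

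**Figure D1:**
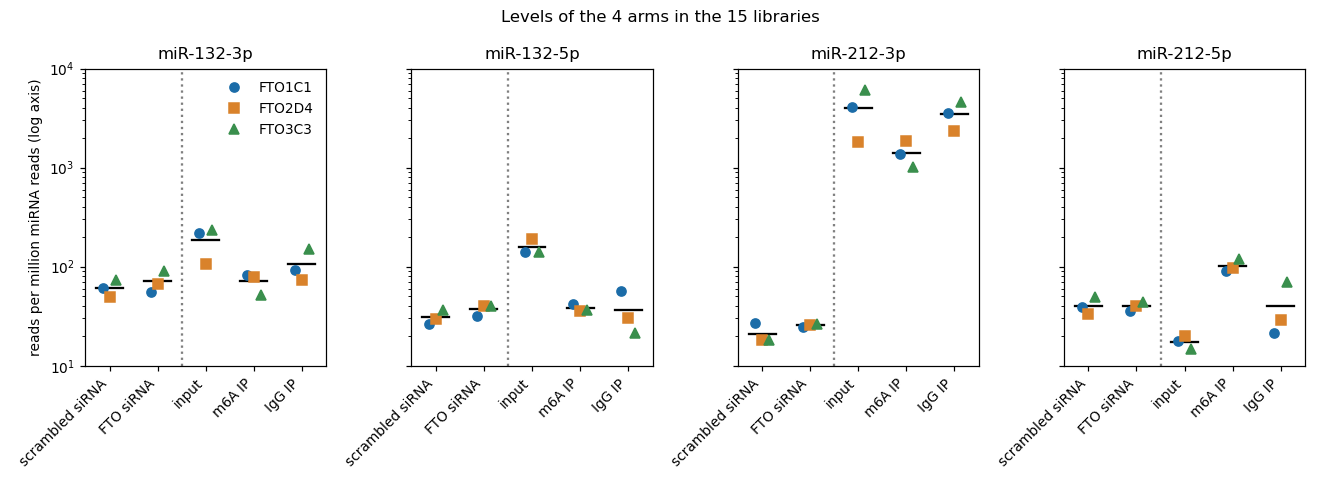
Levels of the 4 arms in RPM on a log axis, with 1 point per library, a symbol per cell line and a bar at the mean of 3 libraries, and a dotted line between the knockdown and the RIP-seq libraries (m6A IP and IgG IP are the m6A and IgG samples). miR-212-3p lies between 18.1 and 26.9 RPM in the knockdown libraries and between 1008 and 6105 RPM in the RIP-seq libraries, while no other arm exceeds 235 RPM.

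The mean of miR-212-3p was 21.1 ± 5.06 RPM (SD, n = 3 cell lines) with scrambled siRNA and 4004 ± 2136 RPM in the input. The tables were made in separate experiments and scaled separately, and transfection, library preparation and table cannot be told apart, so no test was made between them. Set side by side, the mean of miR-212-3p was 190 times as high in the input, against 3.05 times for miR-132-3p and 5.11 times for miR-132-5p. miR-212-5p, from the same hairpin as miR-212-3p, went the other way, with 40.4 ± 8.10 RPM with scrambled siRNA and 17.4 ± 2.62 RPM in the input. Among 2183 miRNAs in both tables, ordered by log2(RPM + 1) of the input minus that of scrambled siRNA, miR-212-3p came 6th and miR-212-5p 1889th. The median over all of them was -0.25, and that of miR-212-3p was 7.50. The 5 miRNAs above miR-212-3p, named after their values were seen, were miR-3168, miR-3972, miR-3150a-5p, miR-6766-3p and miR-4285. Whether the reads counted on miR-212-3p in the RIP-seq libraries came from the MIR212 hairpin was not tested. The counts hold no read sequences, so in them a miRNA cannot be told apart from another RNA or a library oligonucleotide, such as an adapter or primer, that matches part of the entry. The level of miR-212-3p in RIP-seq, its share of the arms and the sum over its seed are therefore values of reads counted on this entry. They are not shown to be those of the miRNA, and the same holds for its changes between RIP-seq groups below.

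**Figure D2:**
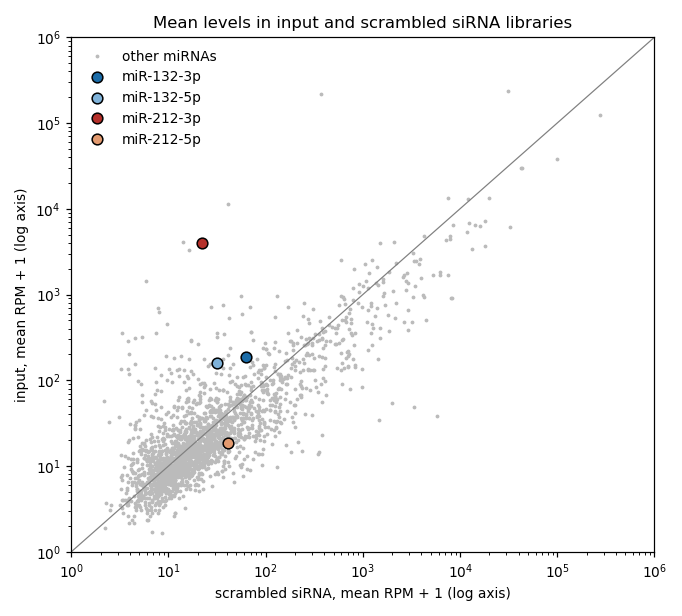
Mean RPM + 1 of 2183 miRNAs in the input (vertical) and with scrambled siRNA (horizontal), both on log axes, with the 4 arms as large points and a line at equal values. miR-212-3p stands far above the line, both arms of miR-132 above it and miR-212-5p below it.

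The same counts were also expressed as ratios within a library, where the total of reads plays no part. These ratios come from the reads given above and are not a second observation of the shift. A ratio of 2 arms was taken as log2 of their reads, with 0.5 reads added to each count. For miR-212 the log2 ratio of 3p to 5p was -0.94 ± 0.46 (SD, n = 3 cell lines) with scrambled siRNA and 7.66 ± 1.09 in the input, or 34.4% and 99.4% of the reads of both arms. For miR-132 it was 0.97 ± 0.23 and 0.17 ± 0.87, so that the groups overlapped. The input of FTO2D4 stood apart from the other inputs, since its 5p arm exceeded its 3p arm (log2 ratio -0.83). Of the reads counted on the 3p entries, which share the seed AACAGUC, miR-132-3p held 74.1% ± 5.72 (SD, n = 3) with scrambled siRNA and 4.75% ± 0.933 in the input. Reads counted on both 3p entries summed to 82.1 ± 13.0 RPM and 4191 ± 2202 RPM, respectively. Whether each read held the seed was not examined.

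**Figure D3:**
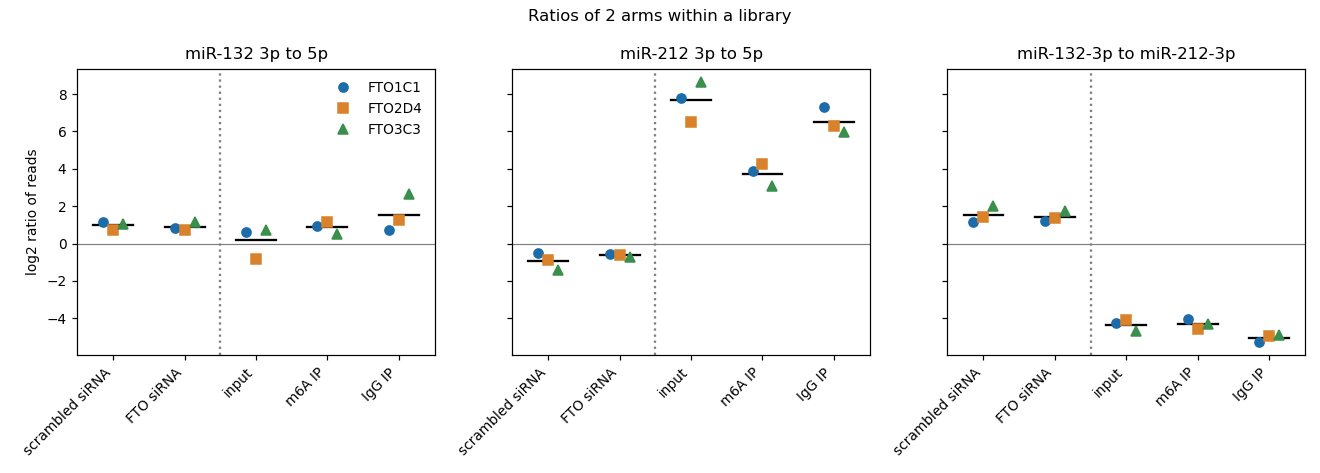
Log2 ratios of reads within a library for the arms of miR-132, the arms of miR-212 and both 3p arms, with 1 point per library, a symbol per cell line and a bar at the mean of 3. The ratio of the miR-212 arms lies below 0 in the 6 knockdown libraries and between 3.07 and 8.67 in the 9 RIP-seq libraries.

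The first comparison asked whether FTO knockdown alters miRNA levels. None of the 4 arms passed the test for a change after knockdown. miR-132-3p had 195, 233 and 349 reads with FTO siRNA, or 56.0, 67.3 and 90.0 RPM, with a mean of 71.1 ± 17.3 RPM against 61.0 ± 12.4 RPM (SD, n = 3 cell lines). miR-212-3p had 85, 90 and 103 reads, or 24.4, 26.0 and 26.6 RPM. Both were lower in FTO1C1 and higher in the other cell lines, and the groups overlapped. Small RNA was sequenced from bulk cultures, so fewer cells with an arm and less of it per cell cannot be told apart.

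miR-132-5p had 111, 140 and 155 reads with FTO siRNA, or 31.9, 40.4 and 40.0 RPM. It was higher in all 3 cell lines, with a ratio of knockdown to control from 1.11 to 1.36, but the ranges of the groups overlapped. miR-212-5p had 35.9, 39.9 and 44.1 RPM, from 125 to 171 reads, and was higher in FTO2D4 only. The mean ratios were 1.17 ± 0.223 for miR-132-3p, 1.22 ± 0.131 for miR-132-5p, 1.27 ± 0.312 for miR-212-3p and 1.01 ± 0.166 for miR-212-5p (SD, n = 3), all within the 2-fold limits of the study. None of the 4 arms had groups that did not overlap, while 26.3% of the 2418 miRNAs were higher and 1.94% lower in every FTO siRNA library than in any scrambled siRNA library.

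In the quasi-likelihood test of edgeR, blocked by cell line and adjusted by Benjamini-Hochberg, the log2 fold change of miR-132-3p was 0.21 (standard error, SE, 0.20, 95% interval -0.22 to 0.64, adjusted p = 0.504). That of miR-132-5p was 0.28 (SE 0.19, interval -0.13 to 0.70, adjusted p = 0.357 by edgeR). For miR-212-3p it was 0.28 (SE 0.21, interval -0.19 to 0.76, adjusted p = 0.414 by edgeR), and for miR-212-5p -0.01 (SE 0.19, interval -0.44 to 0.42, adjusted p = 0.984 by edgeR). The intervals did not reach a log2 change of 1 in either direction. edgeR called 0 of the 4, with 0 at an unadjusted p under 0.05, and DESeq2 also called 0, with 1 adjusted p not given. Over all 2374 miRNAs tested, 4.97% were called higher and 0.505% lower.

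The median log2 fold change of all miRNAs tested was 0.29, so that relative to it miR-132-3p lay at -0.081, miR-132-5p at -0.0076, miR-212-3p at -0.0063 and miR-212-5p at -0.30. With TMM factors, which move that median to -0.00035, the values of miR-132-3p, miR-132-5p and miR-212-3p turned to -0.080, -0.0074 and -0.016. The ratio of 3p to 5p changed by -0.07 ± 0.26 (log2, SD, n = 3) for miR-132 and by 0.31 ± 0.37 for miR-212 (exact two-sided paired permutation p = 1 and 0.5, where the smallest p that 3 pairs allow is 0.25). Of 24 other miRNAs listed as brain-enriched or linked to REST or CREB, among them miR-9, miR-124 and miR-137, 0 were called in either direction by edgeR, beside 4.97% higher and 0.505% lower of all miRNAs tested, shares at which a list of this size would hold few calls. Their median log2 fold change was 0.25.

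The second comparison, of m6A with IgG samples, asked which miRNAs the antibody precipitates beyond background. Reads counted on the arms of miR-212 went in opposite directions, miR-212-5p being higher and miR-212-3p lower in the m6A samples. Those on miR-212-3p are not shown to come from the miRNA, so opposite precipitation of the strands of its hairpin is not shown either. The arms of miR-132 did not pass the test. miR-212-5p had 52, 131 and 597 reads in the m6A samples, or 91.3, 96.1 and 120 RPM, and 16, 23 and 13 reads in the IgG samples, or 21.6, 29.2 and 69.7 RPM. The groups did not overlap, as for 45.9% of the 2189 miRNAs listed that were higher throughout. The ratios were 4.23, 3.29 and 1.72, with a mean of 3.08 ± 1.27 (SD, n = 3 cell lines). The value of FTO3C3 rests on an IgG sample with few reads.

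miR-212-3p had 779, 2547 and 5012 reads in the m6A samples, or 1368, 1869 and 1008 RPM. In the IgG samples it had 2649, 1827 and 850 reads, or 3573, 2322 and 4559 RPM. All 3 IgG samples were above all 3 m6A samples, a pattern that 5.48% of the 2189 miRNAs listed showed in this direction. miR-212-3p was the 5th most abundant miRNA by its mean in the IgG samples, and the 47th in the m6A samples.

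For miR-132-3p there were 47, 108 and 255 reads in the m6A samples, or 82.5, 79.3 and 51.3 RPM, and 69, 58 and 28 reads in the IgG samples, or 93.1, 73.7 and 150 RPM. miR-132-5p had 24, 49 and 181 reads against 42, 24 and 4, or 42.1, 36.0 and 36.4 RPM against 56.6, 30.5 and 21.5 RPM. For both, the groups overlapped and the cell lines did not go in the same direction. The 4 reads of miR-132-5p in the IgG sample of FTO3C3 limit the precision of its ratio, which was 1.70 there.

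In the same edgeR test, miR-212-5p rose by 1.54 on the log2 scale (SE 0.38, 95% interval 0.67 to 2.40, adjusted p = 0.0116). miR-212-3p fell by 1.29 on the log2 scale (SE 0.37, adjusted p = 0.0207 by edgeR). The values were -0.52 for miR-132-3p (interval -1.43 to 0.39, adjusted p = 0.339 by edgeR) and 0.11 for miR-132-5p (interval -0.77 to 0.98, adjusted p = 0.849 by edgeR). Over all 2054 miRNAs tested, 38.6% were called higher and 1.27% lower, and their median was 0.83 on the log2 scale. Relative to this median, miR-212-5p lay at 0.71, miR-132-5p at -0.72, miR-132-3p at -1.35 and miR-212-3p at -2.12.

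The calls depend on the scale. With TMM factors, under which 453 miRNAs were called higher and 302 lower in place of 792 and 26, the log2 fold change of miR-212-5p was 0.79 (adjusted p = 0.110 by edgeR), that of miR-212-3p was -2.03 (adjusted p = 0.00201 by edgeR) and that of miR-132-3p was -1.27 (adjusted p = 0.0241 by edgeR). Over all alternatives the adjusted p ran from 0.0116 to 0.235 for miR-212-5p, from 2.71e-06 to 0.133 for miR-212-3p and from 0.0169 to 0.960 for miR-132-3p. Without FTO2D4, miR-212-5p had a log2 fold change of 1.44 (adjusted p = 0.0983 by edgeR), and without FTO3C3 that of miR-212-3p was -0.85 (adjusted p = 0.133 by edgeR). By the rule of the study, at least 100 RPM and a ratio of at least 2, none of the arms was enriched when the cutoff was applied to all 3 m6A samples. miR-212-5p reached 100 RPM in 1 of 3 and a ratio of 2 in 2 of 3 cell lines, and miR-212-3p reached 100 RPM in all 3 but a ratio of 2 in none. The study does not state whether each sample had to pass. By means, miR-212-5p passed both limits, with 102 RPM in the m6A samples and a ratio of 3.08. The study's own list of enriched miRNAs holds none of the arms.

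The difference between the reads counted on the arms of miR-212 does not depend on the scale. The log2 ratio of 3p to 5p was 3.75 ± 0.62 (SD, n = 3) in the m6A samples and 6.53 ± 0.71 in the IgG samples, and the difference was -3.44, -2.01 and -2.91 in the 3 cell lines (mean -2.78, exact two-sided paired permutation p = 0.25, the smallest possible). For miR-132 the difference was 0.25, -0.12 and -2.17, so the cell lines did not go the same way (exact p = 0.75). The ratio of miR-132-3p to miR-212-3p was higher in the m6A samples in all 3 cell lines, by 0.74 ± 0.42 on the log2 scale (exact p = 0.25).

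**Figure D4:**
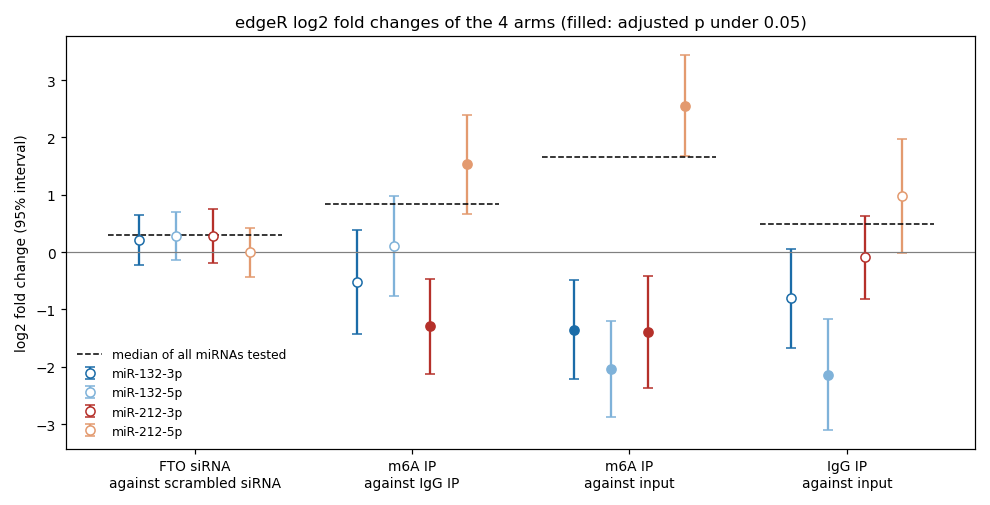
Log2 fold changes of the 4 arms by edgeR in the 4 comparisons with 95% intervals, filled where the adjusted p was under 0.05, and the median of all miRNAs tested as a dashed line. After FTO knockdown all intervals include 0, and miR-212-5p is the only arm above 0 with a filled symbol.

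The consensus of m6A in mRNA has the core AAC or GAC, and its longer form, 1 of 12 words, has an A or G before that core and an A, C or U after it. Both were searched on the strand of the miRNA only, since the RNA itself was precipitated, and each longer word contains the core. Of the 2370 human mature miRNAs in the RefSeq table, 36.1% held the core and 20.7% a longer word. miR-212-5p was the only one of the 4 arms with a longer word, AGACU, which begins at position 12 and is shown here in capitals.
miR-212-5p: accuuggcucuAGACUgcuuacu
In miR-132-3p and miR-212-3p the core AAC begins at position 2, within the seed. miR-132-5p held neither. A match is a description of the sequence and does not show a methylated base.

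Against the input, 3 arms were lower and 1 was higher in the m6A samples, where miR-212-3p again stands for reads counted on its entry. miR-132-5p was lower in every cell line, with ratios of m6A to input of 0.297, 0.189 and 0.259, and the ratios of miR-132-3p were 0.381, 0.742 and 0.218. For both arms of miR-132 all inputs were above all m6A samples, as for 11.1% of the 2189 miRNAs listed. The ratios of miR-212-3p were 0.336, 1.02 and 0.165, so FTO2D4 did not share the direction of the other cell lines. miR-212-5p was higher throughout, with ratios of 5.14, 4.84 and 8.19, and so were 67.9% of the 2189 miRNAs.

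In the same edgeR test, the value on the log2 scale was -2.04 for miR-132-5p (SE 0.41, adjusted p = 6.71e-05) and -1.35 for miR-132-3p (SE 0.42, adjusted p = 0.00536). It was -1.40 for miR-212-3p (SE 0.48, adjusted p = 0.00973 by edgeR) and 2.55 for miR-212-5p (SE 0.43, adjusted p = 7.20e-06 by edgeR). Of the 2174 miRNAs tested, 10.5% were called lower and 66.8% higher, and the median over all was 1.65. The rise of miR-212-5p was therefore 0.90 above the median and shared its direction with most miRNAs, whereas miR-212-3p lay at -3.05 and miR-132-5p at -3.69 relative to it. TMM factors moved this median to 0.10 and the calls from 1452 higher and 229 lower to 575 and 614. With totals that leave out miR-6080, the log2 fold changes of miR-132-3p and miR-212-3p were -0.89 and -0.93 (adjusted p = 0.0770 and 0.0781 by edgeR). Without FTO3C3 they were -0.90 and -0.77 (adjusted p = 0.0952 and 0.155 by edgeR), and without FTO1C1 that of miR-212-3p was -1.29 (adjusted p = 0.0738 by edgeR). Over all alternatives the adjusted p of miR-132-3p ran from 5.94e-10 to 0.0952 and that of miR-212-3p from 9.36e-09 to 0.155.

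The IgG samples were compared with the input in the same way, to describe what the control precipitation retained. miR-132-5p was lower in the IgG samples, with ratios of 0.399, 0.161 and 0.153 and a difference of -2.13 on the log2 scale (SE 0.49, adjusted p = 5.02e-05 by edgeR). This was the only arm called, while 21.8% of the 1941 miRNAs tested were called lower and 36.8% higher, with a median of 0.49. All inputs also exceeded all IgG samples for miR-132-5p, as for 22.5% of the 2189 miRNAs, and all IgG samples exceeded all inputs for miR-212-5p, as for 38.3%. The ratios of miR-212-3p were 0.877, 1.27 and 0.747, and its log2 fold change was -0.09 (95% interval -0.82 to 0.64, adjusted p = 0.847 by edgeR). The values were -0.81 for miR-132-3p (interval -1.66 to 0.05, adjusted p = 0.102 by edgeR) and 0.98 for miR-212-5p (interval -0.02 to 1.98, adjusted p = 0.0873 by edgeR).

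These comparisons share their libraries with those above, since the input and the IgG samples each enter a pair of them. The direction of miR-212-3p turned with the totals used. Without the reads of miR-6080 in them, the log2 fold change of miR-212-3p was 1.05 (adjusted p = 0.00694 by edgeR), that of miR-132-3p was 0.33 and that of miR-212-5p was 2.12 (adjusted p = 1.49e-05 by edgeR), and the median of all miRNAs was 1.67. With TMM factors, in contrast, miR-132-3p was called lower (log2 fold change -1.36, adjusted p = 0.00254 by edgeR). Over all alternatives the adjusted p ran from 0.00694 to 0.965 for miR-212-3p, from 0.00188 to 0.501 for miR-132-3p and from 1.49e-05 to 0.566 for miR-212-5p.

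The order of levels over the RIP-seq groups differed between the arms. For miR-212-5p it was m6A (102 ± 15.4 RPM), IgG (40.2 ± 25.9) and input (17.4 ± 2.62; SD, n = 3 cell lines each), with no overlap between neighbours. For miR-212-3p it was input (4004 ± 2136), IgG (3485 ± 1121) and m6A (1415 ± 433), where input and IgG overlapped. miR-132-5p had 157 ± 27.99 RPM in the input, above 38.2 ± 3.45 in the m6A and 36.2 ± 18.3 in the IgG samples, which overlapped. miR-132-3p ran from input (186 ± 69.4) over IgG (106 ± 39.8) to m6A (71.0 ± 17.2), and neighbouring ranges overlapped at each step.

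Of the other miRNAs listed as brain-enriched or linked to REST or CREB, 24 were tested for m6A against IgG, and 10 were called higher and 0 lower, beside 38.6% and 1.27% of all miRNAs tested, so that the share called higher was near that of all miRNAs. Their median was 1.09 beside 0.83 over all miRNAs (log2 scale). The largest change among them was that of miR-219a-5p, a miRNA of oligodendrocyte differentiation, at 3.68 (adjusted p = 0.000159 by edgeR). Against the input, 9 of the 24 were called higher and 6 lower in the m6A samples, beside 66.8% and 10.5% of all miRNAs, with a median of 0.67 beside 1.65. miR-9-5p, an abundant miRNA of neural progenitors, was the lowest at -3.98, and it was also the lowest for IgG against input at -5.22 (adjusted p = 2.52e-08 and 4.45e-19 by edgeR). Mean levels in the IgG samples were low for miR-219a-5p and miR-9-5p, at 9.76 and 9.25 RPM, and 1 read in that of FTO3C3 was worth 5.36 RPM. For IgG against input, 5 of 23 were called higher and 10 lower, beside 36.8% and 21.8% of all miRNAs, with a median of -0.92 beside 0.49.

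How similarly the arms varied was described by Pearson's r of log2(RPM + 1) over the 15 libraries, after the mean of each table was subtracted. The 3p arms of both genes were the most alike (r = 0.83), ahead of the arms of miR-132 (r = 0.57), and miR-212-5p ran against the other 3 (r between -0.72 and -0.58). Among 1779 other miRNAs with a mean of at least 15 RPM, miR-4671-5p (r = 0.98), miR-6756-5p and miR-6876-5p (both r of at least 0.96) were the most like miR-212-5p. The most like miR-212-3p were miR-548a-5p (r = 0.92), miR-625-5p (r = 0.91) and miR-22-5p (r = 0.87). For miR-132-5p they were miR-126-5p (r = 0.96), miR-5685 and miR-4524b-3p, and for miR-132-3p miR-625-5p (r = 0.85), miR-7-1-3p and miR-425-3p. The libraries fall into 5 groups and share their totals, so these values describe group patterns as much as single libraries.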

How the data were processed

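Raw read counts per mature miRNA were deposited by the authors, as 1 table for the knockdown and 1 for RIP-seq. According to the methods of the study, adapters were removed with cutadapt (4 bp overlap, 20% error), and reads of 16 to 28 bp were matched to miRBase release 20 with perfect stretches of 7 or more bases that cover 17 or more. For the knockdown, sequences of the FTO and scrambled siRNAs joined the reference so that reads of them could be filtered out, and identical entries were merged. Matching did not use a genome. From these counts, RPM of all miRNA reads were computed, after the methods of the study. The quasi-likelihood test of edgeR was run on all miRNAs (cell line as a blocking factor, miRNA totals as library sizes, low counts removed by filterByExpr at 10 reads), separately for each pair of groups, and p-values were adjusted over all miRNAs tested at a threshold of 0.05. The standard error is the log2 fold change divided by the root of F. Ratios of 2 miRNAs were tested by exact paired permutation. Reads come from PCR without molecular identifiers. The test was checked on simulated counts in which a minority of miRNAs changed, as many up as down. That check does not cover a shift of most miRNAs, as in RIP-seq.

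A cell line gave 1 library to each group, which pairs them. Their deviations from the group means (log2(RPM + 1), miRNAs with a mean of at least 10 reads) correlated between 0.118 and 0.190 for scrambled and FTO siRNA and between -0.0777 and 0.0602 within RIP-seq. Libraries of a group differed by more than sampling noise (chi-square over degrees of freedom from 6.11 to 145). The members, the lists and the alternatives were chosen with earlier results of these data known. The named miRNAs are the 4 arms, for each arm the 3 miRNAs with the highest correlation, and up to 3 called miRNAs of the list by size of change. Outside this rule, miR-6080 and the 5 miRNAs above miR-212-3p in the input were named after their values were seen, as was miR-208b-3p among the tissue markers, and miR-10a-5p is a listed marker of the cells. The FTO mRNA was not analysed here. Versions used were edgeR 4.0.16 and DESeq2 1.42.0 in R 4.3.3, and scipy 1.17.1, matplotlib 3.10.9, pandas 2.3.3 and numpy 2.4.6 in Python 3.11.15. Alternatives were TMM factors, DESeq2, no filter, no block, totals without miR-6080 (RIP-seq) and each cell line left out. For ratios of 2 arms they were 1 read added to each count in place of 0.5, and each cell line left out.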

Additional observations from a re-analysis of the deposited data

How the results depend on the processing

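Among the alternative values of the 4 arms, 92 kept their direction and their side of the threshold of 0.05, 10 lost a call in the same direction, 6 gained one in the same direction and 16 turned direction, among them miR-212-3p for IgG against input, which gained a call as it turned. After FTO knockdown no alternative gave a call for any arm, but the log2 fold changes of miR-132-3p, miR-132-5p and miR-212-3p turned to -0.080, -0.0074 and -0.016 with TMM factors and to -0.084, -0.011 and -0.00052 with DESeq2, and that of miR-212-5p ran from -0.13 to 0.068 with 1 cell line left out. For m6A against IgG samples, miR-132-3p was called lower with TMM factors (-1.27), DESeq2 (-1.30) and totals without miR-6080 (-1.20), whereas miR-212-5p was no longer called, at 0.79, 0.75 and 0.84. miR-132-5p turned to -0.66, -0.67 and -0.61 with these settings and to -0.028 without the cell line as a block. With 1 cell line left out, the values ran from -0.85 to -0.031 for miR-132-3p, from -0.092 to 0.43 for miR-132-5p, from -1.78 to -0.85 for miR-212-3p and from 1.27 to 1.88 for miR-212-5p. For m6A against input, totals without miR-6080 ended the calls of miR-132-3p (-0.89) and miR-212-3p (-0.93), and leaving out 1 cell line gave -1.81 to -0.90 and -2.09 to -0.77. For IgG against input, miR-132-3p was called lower with TMM factors (-1.36) and DESeq2 (-1.42), and totals without miR-6080 gave 0.33 for miR-132-3p, 1.05 for miR-212-3p and 2.12 for miR-212-5p. Leaving out 1 cell line gave -0.31 to 0.075 for miR-212-3p and 0.42 to 1.35 for miR-212-5p.

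Ratios of 2 arms kept their direction in 44 of 48 alternatives. These include adding 1 read in place of 0.5 to each count, which moved the ratios little and turned none. The exceptions came with 1 cell line left out, where the change of the miR-132 ratio ran from -0.18 to 0.076 after knockdown and from -1.15 to 0.061 for m6A against IgG, and that of miR-132-3p to miR-212-3p from -0.13 to 0.30 for m6A against input.

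The counts of all called miRNAs moved more. After knockdown, 118 were higher and 12 lower, against 21 and 34 with TMM factors, 33 and 61 with DESeq2, 37 and 4 without the cell line as a block, and 0 to 191 and 0 to 39 with 1 cell line left out, where 0 and 0 came without FTO1C1. For m6A against IgG, 792 and 26 became 453 and 302 with TMM factors, 367 and 249 with DESeq2, 446 and 257 without miR-6080, and 456 to 710 and 3 to 20 with 1 cell line left out, where 456 came without FTO2D4 and 3 without FTO3C3. For m6A against input, 1452 and 229 became 575 and 614 with TMM factors, 491 and 595 with DESeq2, and 147 were lower without miR-6080. For IgG against input, 714 and 423 became 447 higher with DESeq2 and 1231 and 273 without miR-6080. The causes were not tested. Without the block no call of an arm changed. Counts of 4 to 28 reads in the IgG sample of FTO3C3 limit miR-132-3p, miR-132-5p and miR-212-5p there.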
